A study of Mus musculus with 32 samples.

Results

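The expression of 9 genes that mark B and T lymphocytes was followed across 4 tissues of mice lacking *Gpr146*, a G protein-coupled receptor gene, and of their wild-type littermates. They are 9 of the 24646 genes in each table, taken by their symbols: *Ms4a1*, *Cd79a*, *Cd79b* and *Cd22* for B cells, and *Cd3e*, *Cd3g*, *Cd4*, *Cd8a* and *Foxp3* for T cells. Liver, epididymal white fat (eWAT), inguinal white fat (iWAT) and brown fat (BAT) came from C57BL/6J male mice aged 20 weeks that had eaten a high fat diet (HFD) for 3 months and were fasted overnight. *Gpr146* KO mice carry a whole-body deletion made with CRISPR/Cas9, so that immune cells lack the gene as well as fat and liver cells, and WT littermates are the controls. Each genotype had 4 mice per tissue, and each mouse and tissue had 1 Affymetrix Mouse Gene 2.1 ST array, 32 arrays in all. No source used here says that an array pooled several mice.

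B cells carry an antigen receptor whose signal passes through CD79A and CD79B, while CD20 (*Ms4a1*) and the inhibitory receptor CD22 sit beside it on the cell surface. T cells signal through the CD3 chains (*Cd3e*, *Cd3g*), use CD4 or CD8 as coreceptor, and include regulatory T cells that depend on the transcription factor FOXP3. In obese white fat these cells share the tissue with many macrophages, and the inguinal pad of the mouse also holds a lymph node, whose stroma makes the chemokines CCL21 and CCL19 and whose vessels make GLYCAM1.

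The tissues matched their labels. *Ucp1*, the heat-producing protein of brown fat, lay between 11.03 and 11.59 log2 units in BAT and between 2.00 and 4.90 elsewhere, and *Alb* lay between 11.85 and 11.96 in liver and between 1.95 and 6.01 elsewhere. *Gpr146* was lower on every KO array than on every WT array of its tissue, by -1.53 in eWAT, -1.55 in iWAT, -1.16 in BAT and -1.77 in liver on the log2 scale. Where its probes lie relative to the deleted sequence is not given. The 4 tables had been normalized separately, so levels of different tissues are set side by side only against the background of their own array. As background served the 1435 odorant and vomeronasal receptor genes, taken as a stand-in for genes with little or no signal. A value above their 95th percentile on the same array was called above background.

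By that measure the lymphocyte genes were found mainly in white fat. Of the 72 values that 9 genes give on 8 arrays, 61 were above background in iWAT and 50 in eWAT, but only 14 in liver and 8 in BAT. Against the stricter 99th percentile the counts were 35 in iWAT, 11 in eWAT and 0 in both liver and BAT. In eWAT *Cd79b*, *Cd22*, *Cd3e* and *Cd3g* were above background on all 8 arrays, *Cd8a* on 7, *Cd79a* on 5, *Cd4* on 3, *Ms4a1* on 2 and *Foxp3* on 1. In BAT only *Cd22* (4 arrays), *Foxp3* (3) and *Cd79b* (1) were above background on any array, and in liver *Cd4* (7 arrays), *Cd22* (4), *Cd79b* (2) and *Cd79a* (1). A gene near background can change little on the array even where its transcript does, so small differences in BAT and liver say little about these cells.

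**Figure D1:**
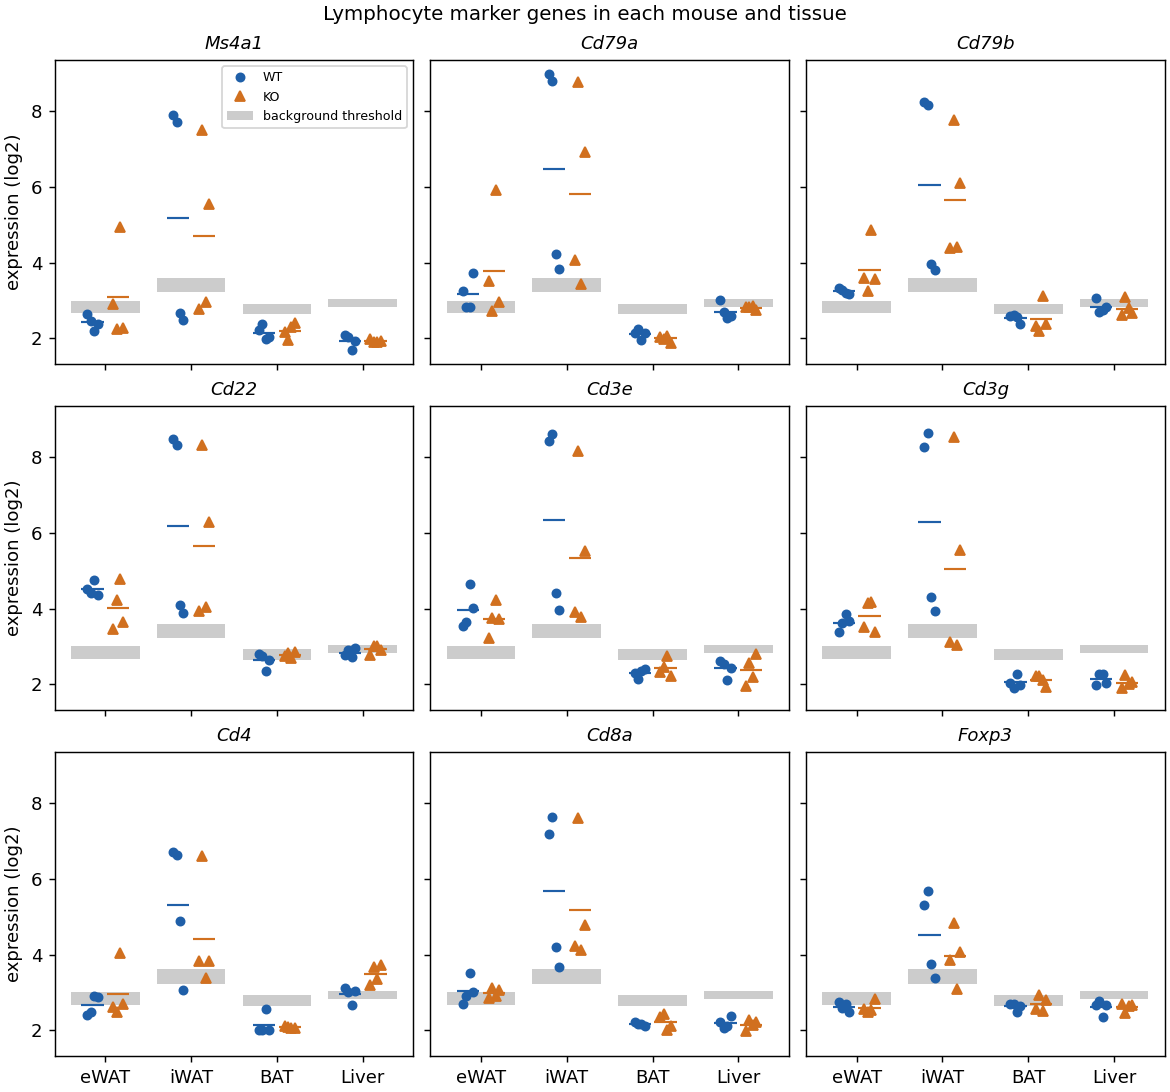
Expression (log2) of the 9 lymphocyte genes on each array of the 4 tissues, circles for WT and triangles for KO mice, with a short line at each mean of 4 and a grey band for the range of the 95th percentile of the receptor genes over the 8 arrays of a tissue. In iWAT 3 arrays stand far above 4 others for nearly every gene, 2 of them WT and 1 KO, whereas in BAT and liver most points lie in or under the grey band.

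In iWAT the B and T cell genes differed far more between mice of one genotype than between genotypes. *Ms4a1* measured 7.89, 7.73, 2.67 and 2.49 in WT mice 1 to 4 and 2.79, 7.50, 2.95 and 5.56 in KO mice 1 to 4. The mice WT 1, WT 2 and KO 2 were high, KO 4 was between, and the other 4 were low, a range of 5.40 log2 units within 1 tissue, which is a lower bound since the 4 low arrays were not above background for this gene. *Cd79a* had the same 4 highest arrays, with 8.99, 8.81, 4.22 and 3.84 in WT mice and 4.08, 8.77, 3.45 and 6.92 in KO mice. *Cd79b*, its partner in receptor signalling, measured 8.25, 8.15, 3.96 and 3.80 in WT mice and 4.40, 7.76, 4.41 and 6.10 in KO mice. *Cd22* measured 8.47, 8.33, 4.10 and 3.87 in WT mice and 3.94, 8.31, 4.03 and 6.30 in KO mice. For each of the 4 B cell genes the same 3 mice were highest, and the lowest of these lay above the highest of WT 3, WT 4, KO 1 and KO 3 by 10.2-fold for *Cd79b*, 18.6-fold for *Cd22* and 23.3-fold for *Cd79a*. In RNA of a whole fat pad, fewer cells of a type and less RNA per cell cannot be told apart.

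The T cell genes split the iWAT arrays at the same place. *Cd3e*, a signalling chain of the T cell receptor complex, measured 8.42, 8.62, 4.41 and 3.95 in WT mice and 3.91, 8.17, 3.78 and 5.52 in KO mice. *Cd3g*, another chain of that complex, measured 8.26, 8.64, 4.31 and 3.93 in WT mice and 3.11, 8.52, 3.03 and 5.56 in KO mice, with KO 1 and KO 3 not above background. Both genes were high in WT 1, WT 2 and KO 2 only. *Cd4*, the coreceptor of helper and regulatory T cells, measured 6.71, 6.63, 4.88 and 3.06 in WT mice and 3.83, 6.60, 3.38 and 3.82 in KO mice. *Cd8a*, the coreceptor of cytotoxic T cells, measured 7.20, 7.65, 4.19 and 3.67 in WT mice and 4.23, 7.61, 4.13 and 4.78 in KO mice. *Foxp3*, the regulatory T cell factor, measured 5.32, 5.67, 3.76 and 3.37 in WT mice and 3.87, 4.84, 3.09 and 4.07 in KO mice. WT 1, WT 2 and KO 2 were the 3 highest arrays for all 9 genes, and KO 4 came next for 8 of them. The exception was *Cd4*, for which WT 3 came next.

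The mouse KO 4 did not hold the same place for every gene. On a scale from the lowest array of a gene (0%) to its highest (100%), KO 4 lay between 51.7% (*Cd79b*) and 62.7% (*Cd79a*) for the 4 B cell genes. For the T cell genes it lay lower, at 36.1% for *Cd3e*, 45.0% for *Cd3g*, 20.7% for *Cd4*, 28% for *Cd8a* and 38.1% for *Foxp3*. With 1 such mouse this difference has no replicate check.

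Promoter sequences are shown for *Cd22*, *Cd79a* and *Cd3e*, and their part in the iWAT values was not tested. They are the 250 bases before the start in RefSeq (GRCm38.p6), read 5′ to 3′ along the gene. *Cd22* lies at chr7:30879029-30879278 on the minus strand, *Cd79a* at chr7:24897247-24897496 on the plus strand and *Cd3e* at chr9:45009612-45009861 on the minus strand. Capitals mark matches to CANNTG, the E-box bound by E proteins of early lymphocytes, and in *Cd22* also the EBF motif, TCCC and GGGA with any pair of bases between them.
Cd22: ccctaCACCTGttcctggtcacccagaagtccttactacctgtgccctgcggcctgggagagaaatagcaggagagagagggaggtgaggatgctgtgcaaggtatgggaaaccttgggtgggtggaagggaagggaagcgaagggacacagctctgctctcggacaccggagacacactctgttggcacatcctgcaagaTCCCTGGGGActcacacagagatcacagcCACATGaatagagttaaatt
Cd79a: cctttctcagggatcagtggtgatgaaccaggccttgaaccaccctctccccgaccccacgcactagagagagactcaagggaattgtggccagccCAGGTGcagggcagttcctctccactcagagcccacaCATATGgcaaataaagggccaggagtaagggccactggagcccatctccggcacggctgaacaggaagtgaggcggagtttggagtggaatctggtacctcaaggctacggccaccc
Cd3e: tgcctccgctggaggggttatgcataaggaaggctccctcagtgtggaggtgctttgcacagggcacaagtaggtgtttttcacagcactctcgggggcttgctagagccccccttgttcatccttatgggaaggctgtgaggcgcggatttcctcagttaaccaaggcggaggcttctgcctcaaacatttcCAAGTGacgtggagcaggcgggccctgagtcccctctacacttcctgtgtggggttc
Entries were found for 6 of the 9 genes, 7 windows in all since *Foxp3* has 2 starts, and both strands were searched. The EBF motif, bound by a factor that sets up the B cell programme, matched in 1 of the 7 windows, that of *Cd22* between 49 and 40 bases before the start, where 0.78% of all 32851 promoter windows have a match. CANNTG matched in all 7 windows and in 66.22% of all windows. The octamer ATGCAAAT (1.60% of all windows) and the RUNX motif TGTGGT (14.05%) matched in 0 of the 7. These matches describe letters only, and a site spelled otherwise was not counted.

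Genes of lymph node stroma varied over the iWAT arrays with the lymphocyte genes, which is given here as a measured fact whose part in the lymphocyte signal was not tested. *Ccl21a*, a chemokine that draws T cells and dendritic cells into lymph nodes, measured 9.90, 9.97, 4.86 and 4.22 in WT mice and 5.13, 9.50, 4.70 and 6.01 in KO mice. *Glycam1*, a ligand for lymphocyte entry made by lymph node vessels, measured 7.10, 6.62, 3.12 and 2.94 in WT mice and 2.67, 6.90, 3.05 and 3.75 in KO mice. WT 1, WT 2 and KO 2 were again highest and KO 4 next. Of the 7 measured genes of this list, *Ccl21a*, *Ccl21b*, *Ccl19* and *Glycam1* put these 3 arrays above the 4 low ones by 4.36- to 24.1-fold, and *Cxcl13* by 1.12-fold. *Madcam1* and *Chst4* did not separate them. The mean of the list lay between 7.02 and 7.37 on the 3 arrays, at 5.03 in KO 4 and between 4.06 and 4.72 on the others.

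Other cell types differed in how far they followed. The mean of 17 further B cell genes was 6.98, 7.0 and 6.78 on WT 1, WT 2 and KO 2, 5.13 on KO 4 and between 3.60 and 3.94 on the rest. For 17 further T cell genes these values were 5.80, 6.20 and 5.88, then 4.27, then 3.45 to 3.63. *Ptprc*, which encodes CD45 of all leukocytes, reached 9.27, 9.40 and 9.41 on the 3 arrays against 5.2 to 7.40 on the others. The mean of 8 macrophage genes did not follow this split, with 6.89, 6.55 and 6.73 on the 3 arrays and 7.65, 7.13, 5.69, 5.97 and 5.93 on WT 3, WT 4, KO 1, KO 3 and KO 4. The fat cell genes *Adipoq* and *Plin1* were lowest on the 3 arrays, *Plin1* at 8.58, 8.65 and 8.72 against 8.98 to 9.49 elsewhere.

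**Figure D2:**
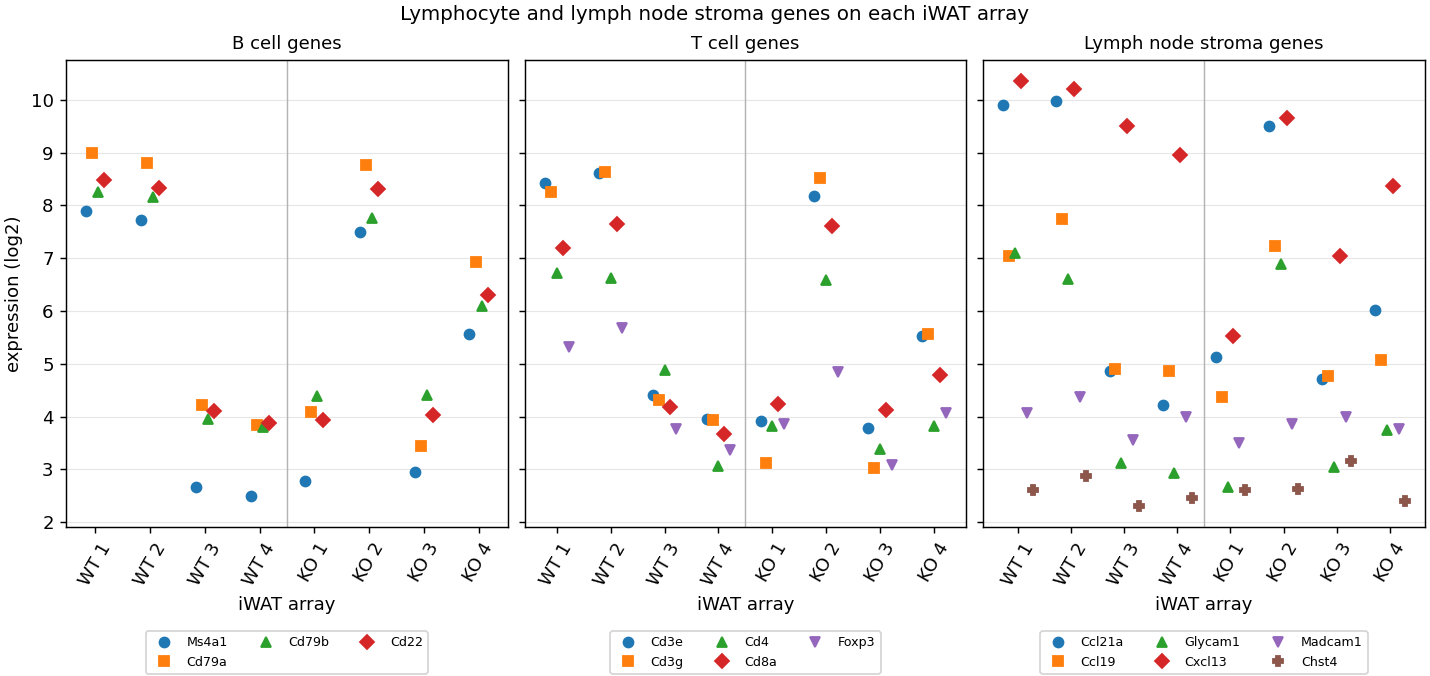
Expression (log2) on each of the 8 iWAT arrays (4 WT mice, then 4 KO mice) of the 4 B cell genes, the 5 T cell genes and 6 genes of lymph node stroma, 1 symbol per gene. All 9 lymphocyte genes are highest on WT 1, WT 2 and KO 2, as are *Ccl21a*, *Ccl19* and *Glycam1*, and KO 4 lies between these and the other 4 arrays for the B cell genes.

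No lymphocyte gene differed between genotypes in iWAT beyond the spread between mice. All 9 means were lower in KO than in WT mice, by between -0.37 (*Cd79b*) and -1.23 (*Cd3g*) on the log2 scale, with standard errors from 0.55 to 1.53. By limma 0 of 9 passed an adjusted p of 0.05, where 0% of all genes did, and the smallest adjusted p was 0.61 (*Foxp3*). At an unadjusted p under 0.05 the count was 0 of 9 beside 15.4% of all genes, the methods' t-test also gave 0, and the 4 KO and 4 WT values were apart for 0 of 9 beside 8.15% of all genes. The interval for *Ms4a1* ran from -3.95 to 2.96 and that for *Cd3g* from -4.53 to 2.07, so that a difference of 2 log2 units either way was not detectable for these 2 genes. The narrowest interval was that of *Foxp3*, from -1.81 to 0.67. The residual SD of the 9 genes lay between 0.95 (*Foxp3*) and 2.67 (*Ms4a1*), at or above the 98.6th percentile of all genes, whose median SD was 0.20.

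The direction of the iWAT differences depended on which arrays were kept. Without WT 1, WT 2 and KO 2, a choice made after seeing the data, *Ms4a1* differed by 1.19 (SE 0.74), *Cd79b* by 1.09 (SE 0.48) and *Cd3g* by -0.22 (SE 0.69), and 0 of 9 genes passed limma's adjusted threshold. Without KO 4 as well, which leaves 2 mice of each genotype, *Cd3g* alone of the 9 passed in limma (adjusted p = 0.0308), with 4.31 and 3.93 in WT 3 and WT 4 and values not above background in KO 1 and KO 3. In that setting 916 of all 24646 genes passed, *Ptprc* among them (-1.58, adjusted p = 0.015). With the mean of the lymph node stroma genes as a covariate all 8 arrays were used, and the differences ranged from -0.08 (*Cd4*) to 0.96 (*Ms4a1*, SE 0.34). None passed the adjusted threshold then, where 2 of all 24646 genes did, and the smallest adjusted p was 0.186 (*Cd8a*, limma). *Ms4a1*, *Cd79b*, *Cd22* and *Cd8a* had unadjusted p-values of 0.0193, 0.0148, 0.0226 and 0.0104 in the limma fit. The share of all genes with an unadjusted p under 0.05 in that fit was not counted, so nothing is read from these 4. That covariate was measured on the same arrays.

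**Figure D3:**
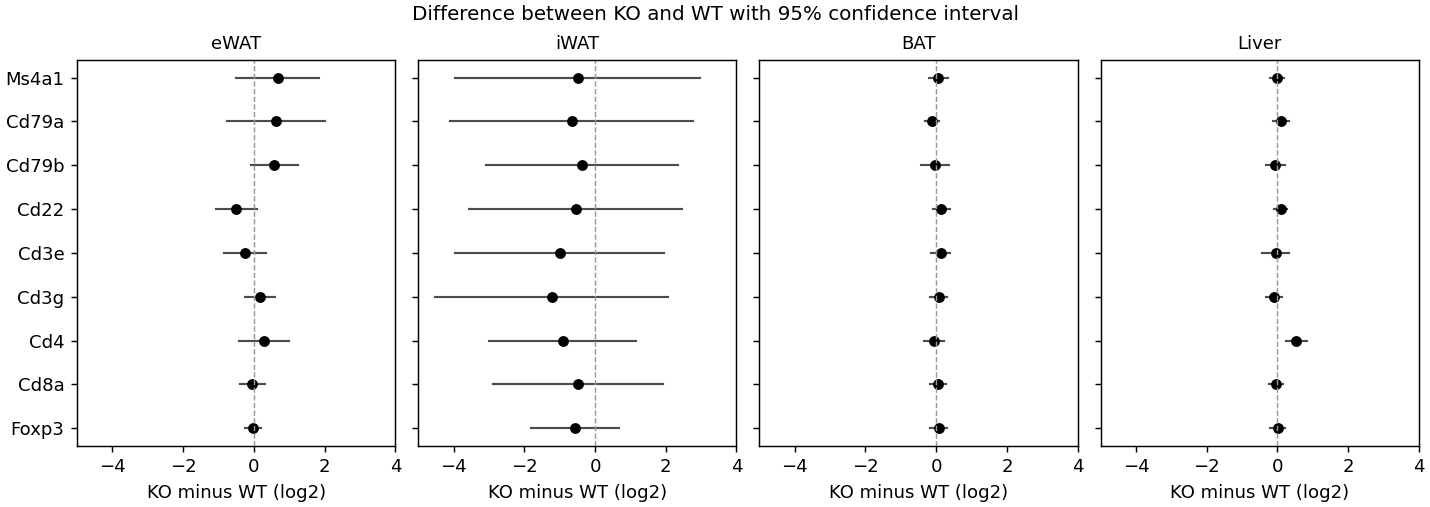
Difference between KO and WT means (log2) of the 9 genes in each tissue, points with 95% confidence intervals from limma, all panels on the same scale. The intervals span several log2 units in iWAT, between 0.44 and 2.76 units in eWAT and under 1 unit in BAT and liver, and all but that of *Cd4* in liver include 0.

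In eWAT the lymphocyte genes showed no difference that passed the test in either direction, while macrophage genes in the same RNA were lower in KO mice. *Cd3e* measured 3.55, 3.65, 4.64 and 4.03 in WT mice and 3.22, 3.75, 4.22 and 3.72 in KO mice, a difference of -0.24 (SE 0.26). *Cd3g* measured 3.37, 3.61, 3.87 and 3.67 in WT mice and 3.52, 4.16, 4.16 and 3.39 in KO mice, a difference of 0.17 (SE 0.19). *Cd8a* measured 2.70, 2.91, 3.51 and 3.02 in WT mice and 2.86, 3.11, 2.90 and 3.08 in KO mice, a difference of -0.05 (SE 0.16). The genotypes overlapped in each of these 3 genes, and the highest WT value was that of WT 3. *Cd4* measured 2.39, 2.48, 2.91 and 2.87 in WT mice and 2.62, 2.48, 4.04 and 2.69 in KO mice, so that KO 3 alone stood above the rest. *Foxp3* lay between 2.47 and 2.82 on all 8 arrays and was above background on only 1 of them.

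A single KO mouse carried most of the B cell signal of eWAT. *Ms4a1* measured 2.65, 2.46, 2.19 and 2.38 in WT mice and 2.90, 2.24, 4.95 and 2.27 in KO mice. *Cd79a* measured 3.25, 2.82, 2.84 and 3.74 in WT mice and 3.51, 2.72, 5.93 and 2.96 in KO mice. *Cd79b* measured 3.33, 3.27, 3.20 and 3.18 in WT mice and 3.59, 3.25, 4.87 and 3.57 in KO mice. KO 3 was the highest array for all 3, by over 1 log2 unit in each case. *Cd22* differed from them, with 4.53, 4.42, 4.76 and 4.35 in WT mice and 3.45, 4.22, 4.77 and 3.64 in KO mice, where the other 3 KO mice lay below every WT mouse. KO 3 was highest for 6 of the 9 genes, WT 3 for *Cd3e* and *Cd8a*, and KO 4 for *Foxp3*.

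On the same array KO 3 some genes of antibody-secreting cells and of lymph node stroma were high and others of the same lists were not. *Igj*, the joining chain of secreted antibodies, measured 8.11 in KO 3 against 2.89 to 5.19 on the other 7 arrays. The plasma cell gene *2010001M09Rik* measured 5.26 against 2.71 to 3.12, while the other 5 of 7 plasma cell genes were not highest in KO 3. *Cxcl13*, the chemokine that attracts B cells, measured 8.59 against 3.68 to 6.90, and of the other lymph node stroma genes *Madcam1* was also highest in KO 3, at 2.65 and above background on 0 arrays. *Glycam1* stayed between 2.81 and 3.05 on all 8 eWAT arrays, and *Ccl21a* in KO 3 was the lowest of the 8 at 4.58. What these genes have to do with the B cell genes in this mouse was not tested.

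**Figure D4:**
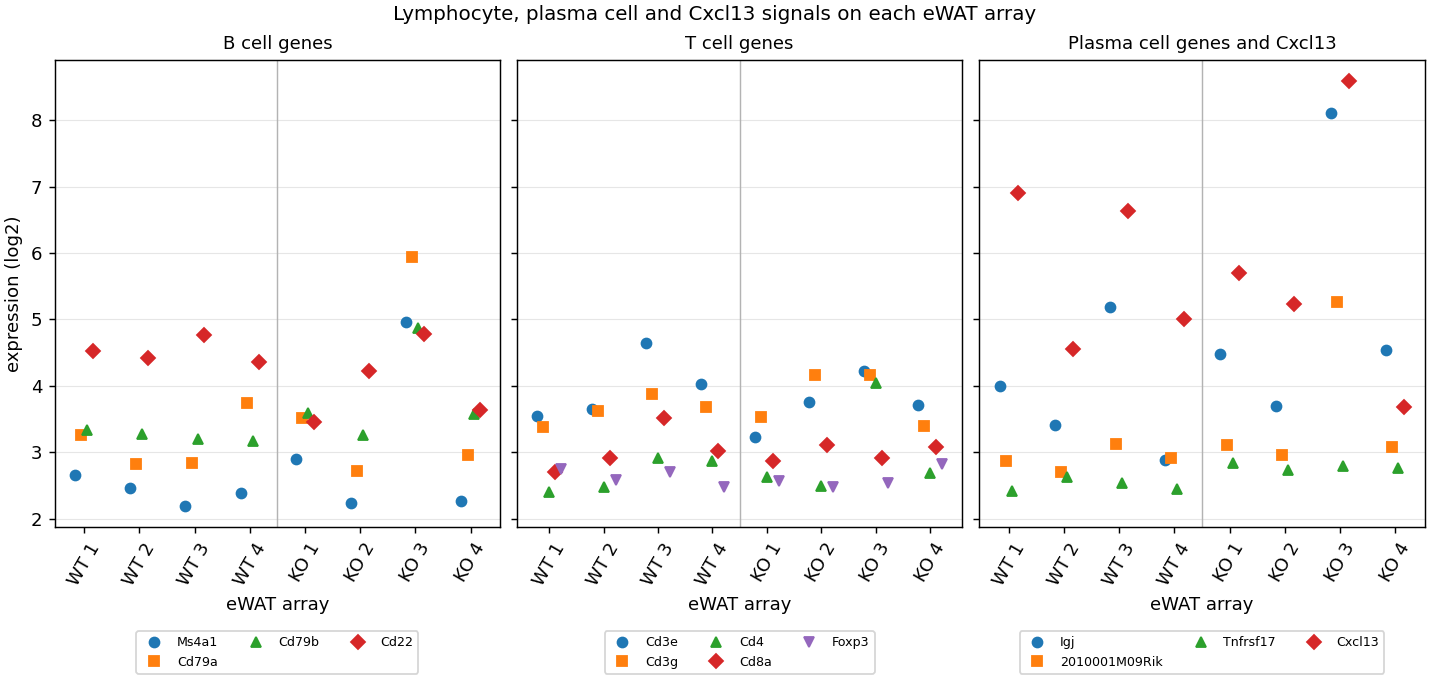
Expression (log2) on each of the 8 eWAT arrays (4 WT mice, then 4 KO mice) of the 4 B cell genes, the 5 T cell genes, and 3 plasma cell genes with *Cxcl13*, 1 symbol per gene. KO 3 stands above the other 7 arrays for *Ms4a1*, *Cd79a*, *Cd79b*, *Cd4*, *Igj*, *2010001M09Rik* and *Cxcl13*.

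By limma 0 of 9 lymphocyte genes passed an adjusted p of 0.05 in eWAT, where 15.2% of all genes did, and the smallest adjusted p was 0.22 (*Cd79b*). At an unadjusted p under 0.05 the count was 0 of 9 beside 29.8% of all genes, by the methods' t-test it was 0, and the 4 KO and 4 WT values were apart for 0 of 9 beside 21.6% of all genes. The differences ran from -0.49 (*Cd22*) to 0.67 (*Ms4a1*, SE 0.52), 5 of them positive, with a median of 0.17 where that of all genes was 0.03. The count depended on KO 3. Without that mouse *Cd22* was lower in KO mice by -0.74 (SE 0.18, adjusted p = 0.0365 from limma), and with array weights by -0.70 (adjusted p = 0.0303). Of all 24646 genes 3211 passed without KO 3 and 5295 with array weights, so 1 of 9 was not above the share of all genes. *Ms4a1* and *Cd79a* then differed by 0.05 and -0.10 without KO 3, from 0.67 and 0.62 with it, and *Cd79b* by 0.23 (SE 0.10).

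The macrophage genes of the same arrays were lower in KO mice for 8 of 8 by limma, with a median difference of -1.91. *Emr1*, which encodes the macrophage marker F4/80, measured 8.70, 8.72, 9.07 and 8.81 in WT mice and 5.37, 8.31, 6.54 and 5.74 in KO mice (difference -2.34, adjusted p = 0.0195), and *Cd14* differed by -1.32, *Itgam* by -2.49 and *Csf1r* by -1.56. KO 2 lay close to the WT mice and the other 3 KO mice far below. The count of 8 was 2 without WT 2, WT 3 or KO 4, 3 without WT 1 or WT 4, 4 without KO 1, 7 without KO 3 and 8 without KO 2, and was 0 with the methods' t-test after adjustment. With 1 array left out the difference stayed between -2.94 and -1.96 for *Emr1* and between -3.08 and -2.24 for *Itgam*. *Ptprc*, in all leukocytes, measured 8.01, 8.06, 8.17 and 8.16 in WT mice and 6.06, 7.90, 7.47 and 6.10 in KO mice, a difference of -1.22 that did not pass (adjusted p = 0.0612 from limma) although the groups were apart, and that passed without KO 2 (adjusted p = 0.00543), with array weights (0.00408) and with dim genes left out (0.0413). For *Ms4a1*, *Cd4* and *Foxp3*, above background on 3 eWAT arrays at most, a fall of the macrophage genes' size could not have been measured. The background threshold lay between 2.67 and 3.00 on the eWAT arrays. The WT means of *Cd79a* (3.16), *Cd79b* (3.24), *Cd8a* (3.03), *Cd3g* (3.63) and *Cd3e* (3.97) were close to it. A fall of the macrophage median of 1.91 could not have been measured in full for these genes either. *Cd22* had the highest WT mean, at 4.52, and such a fall would take it just under the lower end of the background threshold. So none of the 9 genes could have shown a fall of that size in full.

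**Figure D5:**
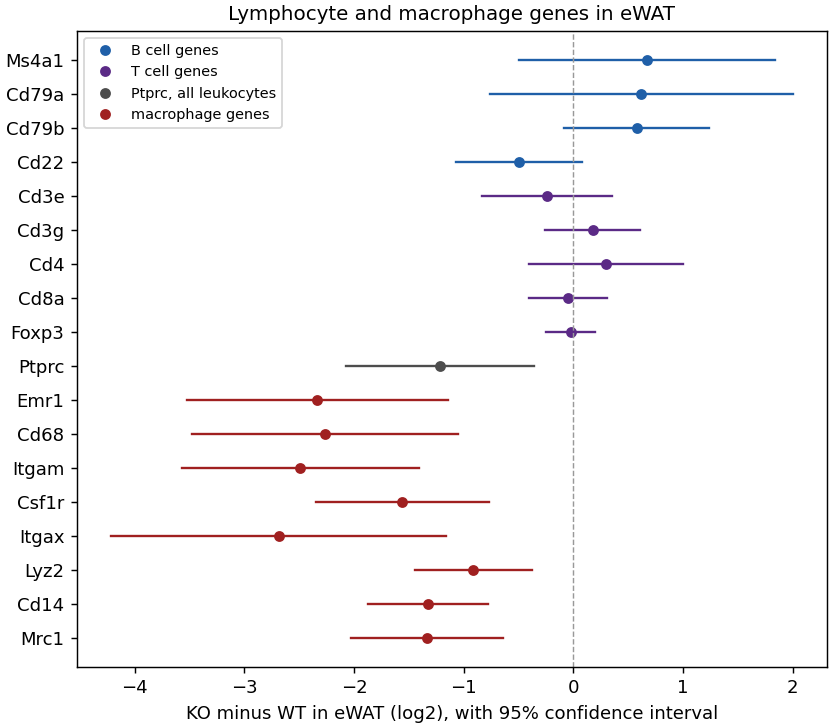
Difference between KO and WT means in eWAT (log2, points with 95% confidence intervals from limma) for the 4 B cell genes, the 5 T cell genes, *Ptprc* and 8 macrophage genes. The intervals of the 9 lymphocyte genes include 0, whereas those of *Ptprc* and the 8 macrophage genes lie below it.

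Set against *Ptprc* on the same eWAT array, all 9 lymphocyte genes had a higher mean in KO than in WT mice, and most genes of the table differed as well. Relative to *Ptprc*, 7 of 9 genes passed an adjusted p of 0.05 in limma beside 78.9% of all genes. The spread of *Ptprc* itself enters every gene of that comparison, which gave all genes a common standard error of 0.50, so nothing is read from the count. In single exact permutation tests (two-sided, 4 mice against 4, smallest possible p 0.0286), *Cd79b* and *Cd3g* were apart between genotypes relative to *Ptprc* (p = 0.0286 each, differences 1.80 and 1.39), which is 2 of 9 beside 58.4% of all genes, and the other 7 had p-values from 0.0571 to 0.114. The count of 7 was 0 without WT 2 or WT 3, 1 without WT 4, 2 without WT 1 or KO 4 and 3 without KO 1.

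Of 17 further B cell genes in eWAT 0 were higher and 4 lower in KO mice by limma. The 4 were *Cd72* (-2.48), *Blnk* (-2.28), *Btk* (-1.89) and *Cd37* (-1.79), with adjusted p-values from 0.0113 to 0.0195, each with all KO mice below all WT mice. *Blnk* did not pass without WT 2, WT 3, WT 4, KO 1 or KO 4 (adjusted p from 0.0504 to 0.0559). All 4 are known to be used by macrophages or other myeloid cells as well as by B cells. *Pax5*, a transcription factor closer to B cells alone, differed by 0.35 (SE 0.20), *Pou2af1* by 0.58 (SE 0.28) and *Cr2* by 0.21 (SE 0.09). These 3 did not pass (adjusted p from 0.14 to 0.287 in limma), but had all KO mice above all WT mice, with KO 3 highest. *Blk*, which differed by -0.14, had all KO mice below all WT mice. *Pou2af1* was above background on 2 eWAT arrays, *Pax5* on 1, and *Cr2* and *Blk* on 0. Groups were apart for 8 of the 17 genes in either direction, beside 21.6% of all genes. The median difference of the list was 0.21.

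Of 17 further T cell genes 0 passed in eWAT in either direction, with a median difference of 0.00. The smallest p-values belonged to *Cd2* (0.48), *Ccr7* (-0.29), *Tcf7* (0.22) and *Lat* (-0.18), a set of adhesion, homing, transcription and signalling genes, with adjusted p-values from 0.0998 to 0.397 in limma. At an unadjusted p under 0.05 there was 1, *Cd2*, and it was higher. Of 8 regulatory T cell genes 1 rose and 1 fell. *Ikzf2*, a transcription factor of regulatory T cells, rose by 0.73 (adjusted p = 0.0299) and *Il1rl1*, the interleukin 33 receptor, fell by 1.17 on the log2 scale (adjusted p = 0.00763 from limma), whereas *Tnfrsf18* differed by 0.52 and *Il2ra* by -0.21 without passing. Mast cells and other innate cells also use *Il1rl1*. *Ikzf2* was above background on all 8 BAT arrays (5.17 to 5.54), where *Cd3e*, *Cd3g*, *Cd4* and *Cd8a* were above it on 0. Which cells gave its rise in eWAT was not tested. The call of *Ikzf2* was lost when any array other than KO 2 was left out (adjusted p from 0.0502 without WT 1 to 0.0817 without WT 2), and *Tnfrsf18* passed without KO 2 (adjusted p = 0.00193).

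Of 11 cytotoxic and natural killer genes only *Ncr1*, a receptor of natural killer cells, passed in eWAT, lower by -0.76 (adjusted p = 0.0121 from limma), while *Ccl5* differed by -0.77 (SE 0.34), *Gzmb* by 0.18 and *Tbx21* by 0.18. Of 7 plasma cell genes *Tnfrsf17* was higher by 0.28 (adjusted p = 0.0364 from limma), although above background on 1 array only. *Sdc1*, which epithelial and other cells also make, was lower by -0.52 (adjusted p = 0.048 from limma). *Irf4* and *2010001M09Rik* differed by 0.25 and 0.70 and did not pass. Among 6 dendritic cell genes *Zbtb46* was higher by 0.41 (adjusted p = 0.0383), while *Xcr1* differed by 0.19, *Flt3* by -0.29 and *Siglech* by 0.16. Of the 7 lymph node stroma genes 0 passed in eWAT, and 0 had an unadjusted p under 0.05. Leaving out any array other than KO 2 ended the calls of *Tnfrsf17* (adjusted p from 0.0521 to 0.106), *Sdc1* (0.0722 to 0.125) and *Zbtb46* (0.0534 to 0.095) in limma, while without KO 2 *Ccl5* and *Flt3* passed (0.0459 and 0.032).

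In BAT the lymphocyte genes were near background in both genotypes. Their differences lay between -0.12 (*Cd79a*) and 0.15 (*Cd22*), with standard errors from 0.09 to 0.18. By limma 0 of 9 passed an adjusted p of 0.05 beside 0.0284% of all genes, 0 of 9 had an unadjusted p under 0.05 beside 12.7% of all genes, the methods' t-test gave 0, and 0 of 9 had groups apart beside 7.23%. The highest value of any B cell gene was *Cd79b* in KO 3 at 3.12, against 2.20 to 2.62 on the other 7 arrays. Of the other lymphocyte, plasma cell, dendritic cell and macrophage genes listed above 0 passed in BAT.

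In liver *Cd4* had the largest difference of the 9 genes, with values above the 95th percentile of the background on 7 arrays and above the 99th on 0. It measured 3.12, 3.01, 2.66 and 3.05 in WT mice and 3.19, 3.67, 3.37 and 3.73 in KO mice, so that every KO mouse lay above every WT mouse. The difference was 0.53 (SE 0.14, 95% interval 0.23 to 0.83), with an exact permutation p of 0.0286, the smallest that 4 against 4 can give. It did not pass after adjustment (limma, adjusted p = 0.116, range 0.0871 to 0.265 over the limma settings tried). At 0.661% of all genes past the adjusted threshold, 0 of 9 lymphocyte genes passed. At an unadjusted p under 0.05 the count was 1 of 9 by limma, beside 13.3% of all genes, and 1 of 9 by the methods' t-test, and groups were apart for 1 of 9, beside 7.78%. Counts of 1 of 9 are near these shares of all genes, so nothing is read from them about lymphocyte genes.

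The remaining liver values were small. The other 8 genes differed by between -0.09 (*Cd3g*) and 0.10 (*Cd79a*), with standard errors from 0.09 to 0.17, and *Cd3e*, *Cd3g*, *Cd8a* and *Ms4a1* were above background on 0 of 8 arrays. Of 17 further T cell genes *Themis*, which acts in T cell development, fell by 1.07 on the log2 scale (adjusted p = 0.0299 from limma), from 3.78, 4.03, 4.63 and 3.70 in WT mice to 3.22, 2.91, 2.75 and 2.99 in KO mice. The other 16 did not pass, nor did any of the 17 further B cell genes. *Themis* did not pass without WT 2, KO 1, KO 3 or KO 4 (adjusted p from 0.0528 to 0.0874). *Ptprc* differed by -0.76 in liver (adjusted p = 0.191), and by limma it passed without KO 2 (0.00642).

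The effect of genotype was then compared between eWAT and each other tissue, pairing the arrays that the labels give the same mouse number. Between eWAT and iWAT 0 of 9 genes differed by limma's adjusted p, beside 0% of all genes, and 0 had an unadjusted p under 0.05. The intervals were wide, from -2.67 to 5.0 around 1.17 for *Ms4a1* and from -0.64 to 1.73 around 0.54 for *Foxp3*. So 8 arrays per tissue could not show whether the B and T cell genes responded differently in the 2 white fats.

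Between eWAT and BAT 1 of 9 genes differed, beside 6.93% of all genes. It was *Cd79b*, with 0.58 in eWAT and -0.02 in BAT, a gap of 0.60 (SE 0.15, adjusted p = 0.0426 from limma). In BAT *Cd79b* was above background on 1 array only, and without pairing by mouse the gap did not pass (adjusted p = 0.412). It also did not pass when any mouse other than KO 2 was left out (adjusted p from 0.0582 without KO 3 to 0.116 without WT 2). *Ptprc* differed between these tissues by -1.29 (adjusted p = 0.0107). Between eWAT and liver 0 of 9 genes differed by limma, beside 8.37% of all genes, and *Cd22* alone had an unadjusted p under 0.05, with a gap of -0.58 (SE 0.24). Without pairing by mouse 0 genes passed in any of the 3 comparisons.

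Genes whose values over the arrays ran closest to the members were sought among all genes, leaving out predicted ones. Over the 8 iWAT arrays the 5 nearest to the mean of the 4 B cell genes were *Faim3* (r = 0.996), *Bcl11a* (0.996), *Btla* (0.994), *Ly6d* (0.994) and *Sorl1* (0.993). *Faim3*, a receptor for IgM, measured 8.22, 8.37, 3.48 and 3.71 in WT mice and 3.74, 7.87, 3.38 and 5.86 in KO mice, and *Btla*, an inhibitory receptor of lymphocytes, spanned 3.43 to 8.56. All 5 were highest on WT 1, WT 2 and KO 2 and next on KO 4. Since the arrays fall into clusters, r serves here only to say how these genes were found.

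In eWAT the 5 genes nearest to the mean of the 5 T cell genes were *Tas2r115* (r = 0.977), *Slc2a9* (0.965), *Slamf6* (0.963), *Olfr874* (0.957) and *Tcrb-J* (0.955), over 8 arrays. *Slamf6*, a lymphocyte receptor, and *Tcrb-J*, a segment of the T cell receptor, belong to T cells. *Slamf6*, however, measured only 1.91 to 2.28, and the taste receptor *Tas2r115* 1.29 to 1.58 and the odorant receptor *Olfr874* 1.46 to 1.61, ranges of under 1 log2 unit at values below background. The 5 T cell genes themselves varied little there, their mean lying between 2.95 and 3.57 on the 8 eWAT arrays, against 3.48 to 7.44 on the 8 iWAT arrays of a separately normalized table.

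The spread between mice of one genotype differed by tissue. The median residual SD of the 9 genes was 2.29 log2 units in iWAT, 0.45 in eWAT, 0.16 in BAT and 0.15 in liver, where the median over all genes was 0.20, 0.15, 0.15 and 0.13. In eWAT it fell to 0.28 without KO 3. *Foxp3* in eWAT had an SD of 0.14, at the 41.8th percentile of all genes, and *Cd79a* one of 1.08, at the 99.8th.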

How the data were processed

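Each tissue has 1 table, in which the authors give the log2 expression of every symbol on every array, measured from 100 ng of biotin-labelled total RNA on Affymetrix Mouse Gene 2.1 ST arrays. The probe summary, the normalization and the software are not given in the sources used here. For 840 symbols the identifier held a decimal point, which was taken as a sign that several probe sets had been averaged. Averages with a whole-number identifier would be missed by this. After 1 or 2 entries with a blank or garbled name were left out of each table, 24646 genes were tested. Genotype, tissue and mouse number came from the labels. The titles of the liver KO samples name WT as well, and their genotype and source fields were used.

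KO and WT mice were compared within each tissue with limma 3.58.1 (R 4.3.3), with Benjamini-Hochberg adjustment over all genes and a threshold of 0.05, and checked against exact two-sided permutation tests over the 70 relabelings of 4 against 4 and the methods' t-test. Effects of genotype in eWAT and another tissue were compared on differences between arrays of the same mouse number. Values of other genes are named for the 9 genes, *Gpr146*, *Ptprc*, the lymph node stroma list, the up to 4 genes of each other list with the smallest p in eWAT, and the 5 genes nearest to the B cell mean in iWAT and the T cell mean in eWAT. *Igj*, *Pax5*, *Pou2af1*, *Cr2*, *Themis* and the tissue markers were named after their values were seen. The 9 genes and all lists were chosen with earlier results of these data known. Symbols not found under their current name were looked up under the older one, as for *Emr1* (*Adgre1*), *Igj* (*Jchain*) and *2010001M09Rik* (*Mzb1*).

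The labels do not say that litters or batches were shared, and p-values judge differences between genotypes against the spread between these mice. The alternatives were a trended and robust prior, array weights, dim genes left out, quantile normalization, equal array medians, the replicate block, each array left out and, in iWAT, lymph node stroma as a covariate. The procedure was tested on simulated data. Figures were drawn with matplotlib 3.10.9 (Python 3.11.15). The number of arrays limits the precision.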

Additional observations from a re-analysis of the deposited data

Results flagged for a closer look

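Within groups of 4 mice, 7 of 144 sets of values (18 genes in 8 groups) had 1 array far from the other 3 by Dixon's ratio (over 0.829), where chance alone gives about 1 in 20, here 7.2. *Cd4* was among them in 3 groups. It stood at 4.04 in KO 3 of eWAT against 2.48 to 2.69 in the other KO mice, at 6.60 in KO 2 of iWAT against 3.38 to 3.83, and at 2.56 in WT 3 of BAT against 2.00 to 2.01. In liver KO 2 stood high for *Ccl21a* (4.43 against 3.39 to 3.53) and *Ccl21b* (4.61 against 3.5 to 3.68), and KO 4 for *Glycam1* (2.79 against 2.69 to 2.70) and low for *Chst4* (2.24 against 2.34 to 2.36).

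The difference between KO and WT mice was itself different between eWAT and BAT for *Cd79b*, by 0.60 (0.58 in eWAT and -0.02 in BAT), and for *Ptprc*, by -1.29 (-1.22 in eWAT and 0.07 in BAT), in the limma comparison that pairs arrays by mouse number. Neither passed without that pairing.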

How the results depend on the processing

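The count of 0 lymphocyte genes past the adjusted threshold in limma was also 0 under every alternative in BAT, 1 in eWAT with array weights and without KO 3 (*Cd22*; 0 to 1 over the arrays left out), 1 in iWAT without WT 1, WT 2, KO 2 and KO 4 (*Cd3g*), and 1 in liver with the methods' t-test before adjustment (*Cd4*). No lymphocyte gene was left in BAT once dim genes were left out. Same-numbered KO and WT mice deviated from their group means with r from -0.385 to 0.669 over all genes and not above 0.1 in every pair, so the numbers were not used to pair KO with WT mice. Same-numbered arrays of eWAT and BAT deviated with r from 0.0155 to 0.175. For eWAT and liver r was -0.0635 to 0.1497, and for eWAT and iWAT -0.0164 to 0.2989. These values were not above 0.1 in every pair either, so the pairing between tissues rests on the labels alone. With the replicate block 0 of 9 genes passed in each tissue, the smallest adjusted p being 0.132 in eWAT and 0.368 in iWAT, and of the genes named *Tnfrsf17* (0.0894) in eWAT and *Themis* (0.0586) in liver lost their calls and no other did. *Sdc1* did not pass with equal array medians (0.0583) or quantile normalization (0.0676), nor did *Tnfrsf17* after quantile normalization (0.0746). Against the 99th percentile, 11 values were above background in eWAT, 35 in iWAT, 0 in BAT and 0 in liver. Between eWAT and BAT 0 genes differed without pairing by mouse and 0 to 1 with 1 mouse left out, and between eWAT and liver 0 to 1. Relative to *Ptprc* 0 to 9 genes passed with 1 array left out. The spread in eWAT was 0.28 to 0.50 with 1 array left out.

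Differences turned sign as follows, none past the threshold. In iWAT the covariate gave *Ms4a1* 0.96, *Cd79a* 0.76, *Cd79b* 0.78, *Cd22* 0.73, *Cd3e* 0.27, *Cd3g* 0.17 and *Cd8a* 0.54. Without WT 1, WT 2 and KO 2 it was 1.19 for *Ms4a1*, 0.79 for *Cd79a*, 1.09 for *Cd79b*, 0.77 for *Cd22*, 0.22 for *Cd3e*, 0.45 for *Cd8a* and 0.11 for *Foxp3*, and without KO 4 as well 0.29 for *Ms4a1*, 0.52 for *Cd79b*, 4e-04 for *Cd22* and 0.25 for *Cd8a*. With array weights *Foxp3* in eWAT was 0.0212 and *Ms4a1* in liver 0.0109, and *Foxp3* in liver was -0.0286 after quantile normalization and -0.0134 with equal array medians. With 1 array left out, eWAT gave -0.10 to 0.97 for *Cd79a*, -0.0632 to 0.45 for *Cd4*, -0.16 to 0.11 for *Cd8a* and -0.0968 to 0.0168 for *Foxp3*. In iWAT the ranges were -1.43 to 0.40 for *Ms4a1*, -1.65 to 0.18 for *Cd79a*, -1.12 to 0.36 for *Cd79b*, -1.44 to 0.21 for *Cd22* and -1.29 to 0.17 for *Cd8a*. In BAT they were -0.0044 to 0.14 for *Ms4a1*, -0.23 to 0.0799 for *Cd79b*, -0.11 to 0.0797 for *Cd4*, -0.0094 to 0.13 for *Cd8a* and -0.0078 to 0.13 for *Foxp3*. In liver they were -0.0883 to 0.0487 for *Ms4a1*, -0.16 to 0.02 for *Cd79b*, -0.19 to 0.0949 for *Cd3e*, -0.089 to 0.011 for *Cd8a* and -0.0797 to 0.0567 for *Foxp3*. The cause of these turns was not tested. Of 1198 values under an alternative, 16 were counts of macrophage genes lower in eWAT and the rest were single differences. In all 1026 were unchanged, 9 of them such counts that stayed near 8. A single difference was unchanged if it kept its direction and its side of the threshold. Over all genes, limma's calls in eWAT (3758) were between 1448 and 5429 with 1 array left out, 38 with the methods' t-test after adjustment and 6798 before it. In liver (163) they were 41 to 300, 2 and 2901, in BAT (7) 0 to 80, 0 and 2803, and in iWAT (0) 0 to 227, 1 and 3167. In BAT they were 0 with quantile normalization, equal array medians or the replicate block, and in iWAT 78 without WT 1, WT 2 and KO 2 and 916 without KO 4 as well. In eWAT they were 5295 with array weights. Signal near background limits all values in BAT and liver.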
